A study of Mus musculus with 25 samples.

Results

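The tripartite motif (TRIM) proteins are a large family built from a RING finger, B-box zinc fingers and a coiled coil, and many of them are E3 ubiquitin ligases. Its members here were the protein-coding genes of the deposited table whose mouse symbol is Trim followed by a digit and whose mean over all 25 libraries was at least 0.5 FPKM (sequenced fragments relative to transcript length and library size). Of 69 genes with such a symbol, 68 were protein-coding and 45 of these reached the minimum. The other 23 protein-coding genes did not. The 45 members were divided into 13 on a list of interferon-like TRIM genes and 32 others. The list holds 17 symbols, and its genes Trim34b, Trim38, Trim69 and Trim30c did not reach the minimum.

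RNA was sequenced from the distal colon of C57BL/6 mice aged 6 weeks, 5 of each of 5 genotypes. The controls are Nemofl/fl mice, whose Ikbkg gene is floxed but present. Ikbkg encodes NEMO, the regulatory subunit of the IκB kinase (IKK) complex. NEMOIEC-KO mice lack NEMO in intestinal epithelial cells, and the series asks about the part of p40-containing cytokines in the colitis that these mice develop. The other groups are NEMOIEC-KO mice labelled Il12b-/- (the p40 chain common to both cytokines), Il12a-/- (p35, found in IL-12 alone) or Il23a-/- (p19, found in IL-23 alone). They all carry the epithelial NEMO deletion, and below they are called by their cytokine label alone. The labels do not describe the cytokine alleles. The gene is deleted in epithelial cells, while RNA was measured in whole tissue, so cells that keep NEMO are part of every sample.

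Interferons act through STAT and IRF transcription factors, and some TRIM genes are among their targets. TRIM25 and TRIM65 ubiquitinate the RNA sensors RIG-I and MDA5, TRIM5 binds retroviral capsids, and TRIM21 is a cytosolic receptor for antibody-coated particles. Other members have roles without a known link to interferon, such as TRIM28, the co-repressor of KRAB zinc finger proteins. In the gut, TRIM31 and TRIM40 are known as epithelial members, and both have been linked to restraint of inflammatory signalling.

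The 25 libraries summed to between 653776 and 744280 FPKM, and between 13529 and 14374 genes in each reached 1 FPKM. Absolute depth is unknown, and relative depth, read from the steps of low values, lay between 0.700 and 1.16 of the median library. Ikbkg averaged 9.08 ± 1.14 FPKM (SD, n = 5) in controls and between 3.34 and 4.08 FPKM in the 4 other groups. Il12b and Il12a RNA went against the labels: Il12b stood at 0.994 ± 0.223 FPKM in libraries labelled Il12b-/- and at 0.171 ± 0.0799 in NEMOIEC-KO, and Il12a at 1.2 ± 0.586 in those labelled Il12a-/- and at 0.421 ± 0.313 in NEMOIEC-KO. Il23a stood at 0.214 ± 0.0427 FPKM in those labelled Il23a-/-, against 0.311 ± 0.308. A whole-gene value does not show which part of a gene is deleted, so the cytokine names below are labels. By sex-linked RNA, 0 Nemofl/fl, 1 NEMOIEC-KO, 2 Il12b-/-, 2 Il12a-/- and 4 Il23a-/- mice were female. The library names carry codes that split with genotype: all 5 control libraries share 1 code with NEMOIEC-KO replicates 3, 4 and 5, and the rest carry another, except Il23a-/- replicate 5, which has a code of its own.

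Trim28, the KRAB co-repressor gene, was the most abundant of the family, at a mean of 118 FPKM over all libraries. Next came Trim31 at 52.9, Trim40 at 49.2, Trim16 and Trim26 at 41.6 each, Trim12a at 40.5 and Trim15 at 30.0 FPKM. Its group means lay between 107 ± 9.89 FPKM in controls and 134 ± 30.2 in Il12b-/- mice (SD, n = 5), and 0 of the 10 comparisons between genotypes called it. Just inside the minimum were Trim30b at 0.594 and Trim10 at 0.995 FPKM, and just outside it were Trim34b at 0.337 and Trim17 at 0.216 FPKM. Fold changes are on the scale of log2(FPKM + 0.5), which understates the change of weak genes.

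In NEMOIEC-KO colon, 15 of 45 members were higher and 10 were lower than in Nemofl/fl colon (limma, adjusted p below 0.05 over 19266 genes). Of all genes tested, 32.2% were called in this comparison, 11.9% as higher and 20.3% as lower. The 13 interferon-like members had 8 higher and 0 lower, with a median log2 fold change of 0.63. The 32 other members had 7 higher and 10 lower, with a median of -0.08, and the median of all genes was also -0.08. With median-of-ratios scaling the share of higher genes among all called genes was 48.5% in place of 36.9%, and 6 members were called lower in place of 10. The 6 members with a fitted rise of more than 2-fold were Trim15, Trim10, Trim40, Trim29, Trim30a and Trim12a. Of these, Trim10 reached the minimum for members only through its NEMOIEC-KO libraries. In bulk tissue, fewer cells of a type and less RNA per cell cannot be told apart.

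**Figure D1:**
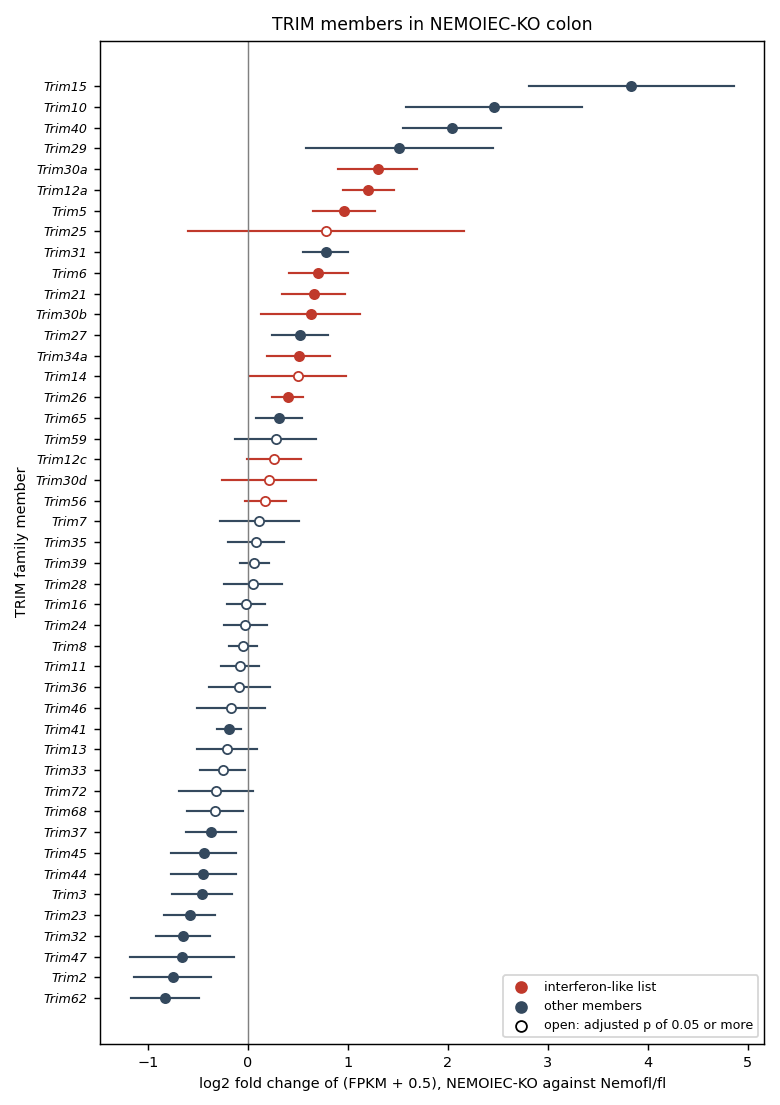
Log2 fold change of FPKM + 0.5 in NEMOIEC-KO against Nemofl/fl colon for each of the 45 members (points) with its 95% confidence interval (lines, limma, n = 5 per group); red marks the 13 interferon-like members and open points those not called. Trim15, at 3.84, lies farthest to the right and Trim62, at -0.83, farthest to the left; the wide interval of Trim25 comes with 1 library listed at 0.

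Trim15, Trim10 and Trim40, the members with the steepest rises, lie side by side with Trim26 and Trim31, whose rises were smaller. Trim26 (chr17:36837134-36859398, plus strand), Trim15 (chr17:36860691-36867210, minus), Trim10 (chr17:36869574-36877833, plus), Trim40 (chr17:36881598-36890123, minus) and Trim31 (chr17:36898118-36910214, plus) are neighbours on chromosome 17 (GRCm38), in the region of the major histocompatibility complex. All 5 were called higher in NEMOIEC-KO, and their NEMOIEC-KO libraries all lay above all Nemofl/fl libraries. Trim10 is a member only through its NEMOIEC-KO libraries, so its call and separation are not independent of its selection. The share of all genes that separate in this way is not given, here or below, so separation only describes each gene. Trim39 (chr17:36258873-36272247, minus), which lies farther off on the same chromosome and is named after its values were seen, was not called, at 9.19 ± 0.801 against 8.75 ± 0.114 FPKM (SD, n = 5).

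Trim15 encodes a RING-type member that has been found at focal adhesions. It measured 5.07, 3.33, 4.50, 5.14 and 5.18 FPKM in the Nemofl/fl libraries and 54.0, 92.5, 137, 34.7 and 82.2 FPKM in NEMOIEC-KO. The NEMOIEC-KO mean of 80.1 ± 39.1 FPKM was 17.2 times the Nemofl/fl mean of 4.64 ± 0.784 (log2 fold change 3.84, 95% interval 2.81 to 4.86, limma adjusted p = 1.5e-05). Replicate 3 was the highest NEMOIEC-KO library and replicate 4 the lowest, and no library of either group came near the other group.

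In Il12b-/- libraries Trim15 measured 4.77, 10.2, 6.89, 4.50 and 2.67 FPKM, which overlaps Nemofl/fl and lies below every NEMOIEC-KO library. In Il12a-/- libraries it measured 51.1, 23.5, 12.8, 13.3 and 9.10 FPKM, with replicate 1 inside the NEMOIEC-KO range and the other 4 below it. In Il23a-/- libraries it measured 81.5, 16.4, 19.1, 59.2 and 10.8 FPKM, so that replicates 1 and 4 lay within the NEMOIEC-KO range and replicates 2, 3 and 5 below it. Against NEMOIEC-KO, Trim15 fell by 3.65 on the log2 scale in Il12b-/- mice (limma adjusted p = 4.4e-05) and by 1.97 in Il12a-/- mice (adjusted p = 0.018). The difference in Il23a-/- mice was -1.36 with a 95% interval of -2.39 to -0.33, and it did not pass the adjustment (limma adjusted p = 0.29). The Il12a-/- call has adjusted p-values of 0.051 to 0.059 without NEMOIEC-KO replicate 3 or without Il12a-/- replicate 3, 4 or 5.

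Trim10, known from erythroid cells, is weak in the colon. Its group means were 0.0797 FPKM in Nemofl/fl, 0.0930 in Il12b-/-, 0.440 in Il12a-/-, 1.02 in Il23a-/- and 3.35 in NEMOIEC-KO mice. Trim10 reached the minimum for members only through the NEMOIEC-KO libraries, so its calls involving that group are not independent of its selection. It measured 0.109, 0.0913, 0.0665, 0.0595 and 0.0722 FPKM in control and 1.65, 2.33, 8.64, 1.31 and 2.80 FPKM in NEMOIEC-KO libraries, a rise of 2.46 on the log2 scale (95% interval 1.58 to 3.35, limma adjusted p = 0.00029). Replicate 3 stood at more than 3 times any other NEMOIEC-KO library. Without it the comparison was still called. In Il12b-/- libraries it ran from 0.0334 to 0.161 FPKM, overlapping the controls and below all NEMOIEC-KO libraries. The Il12a-/- values were 1.66, 0.171, 0.157, 0.0984 and 0.113 FPKM and the Il23a-/- values 2.62, 0.247, 0.212, 1.77 and 0.235 FPKM. The libraries that were high for Trim15 in those groups, Il12a-/- replicate 1 and Il23a-/- replicates 1 and 4, were thus also those high for Trim10. The erythroid marker list had 0 of 6 genes higher and 1 lower in NEMOIEC-KO against Nemofl/fl, with summed levels of 21.2 to 82.6 against 26.3 to 67.8 FPKM.

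Trim40, a gut epithelial member that has been reported to act on the IKK complex through NEMO, measured 18.1, 23.4, 24.7, 22.9 and 28.6 FPKM in Nemofl/fl libraries. In NEMOIEC-KO libraries it measured 91.5, 113, 127, 66.8 and 100 FPKM. The mean of 99.7 ± 22.7 against 23.5 ± 3.78 FPKM (SD, n = 5) was a rise of 2.04 on the log2 scale (95% interval 1.55 to 2.53, limma adjusted p = 4e-06), with no overlap.

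In Il12b-/- mice Trim40 overlapped the controls, at 17.1, 22.8, 22.3, 19.8 and 20.5 FPKM, below all NEMOIEC-KO libraries (-2.23 on the log2 scale, limma adjusted p = 2.8e-06). In Il12a-/- mice it measured 95, 44.0, 45.7, 38.6 and 30.7 FPKM, and in Il23a-/- mice 63.7, 36.2, 41.6, 75.7 and 40.9 FPKM. All libraries of both groups lay above all Nemofl/fl libraries, with log2 fold changes of 0.99 (limma adjusted p = 0.039) and 1.07 (adjusted p = 0.0033). Against NEMOIEC-KO the Il12a-/- fold change was -1.05 (limma adjusted p = 0.011), and the Il23a-/- one was -0.97 with a 95% interval of -1.46 to -0.48 (adjusted p = 0.11). Without Il12a-/- replicate 1, the fold change of Trim40 in Il12a-/- against Nemofl/fl was 0.74 and no longer called (adjusted p = 0.086), while that against NEMOIEC-KO was -1.30 (adjusted p = 0.00017). With the same library left out of the fit, the Il23a-/- fold change of Trim40 against NEMOIEC-KO stayed at -0.97 and was called (adjusted p = 0.019).

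Trim31, a ubiquitin ligase known to act on the antiviral adaptor MAVS and on the inflammasome sensor NLRP3, was the second most abundant member. It measured 47.9, 36.7, 41.5, 45.7 and 44.3 FPKM in control and 66.8, 84.9, 83.0, 62.2 and 76.4 FPKM in NEMOIEC-KO libraries (0.78 on the log2 scale, limma adjusted p = 3.8e-05). In Il12b-/- mice it averaged 38.3 ± 4.97 FPKM, lower than NEMOIEC-KO with a log2 fold change of -0.95 (adjusted p = 6.8e-06). In Il12a-/- mice it averaged 47.7 ± 8.37 FPKM (log2 fold change -0.65, adjusted p = 0.0015). Here too Il12a-/- replicate 1, at 61.6 FPKM, stood above its group, which otherwise ranged from 40.2 to 47.9 FPKM. The Il23a-/- libraries were close together, from 58.3 to 64.6 FPKM. They all exceeded the Nemofl/fl libraries (log2 fold change 0.49, limma adjusted p = 0.0036), and 2 of them lay within the NEMOIEC-KO range.

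Trim26, which closes the cluster at its other end and is on the interferon-like list, changed least of the 5. It measured 34.4, 35.9, 37.0, 34.8 and 36.7 FPKM in control and 44.8, 51.9, 51.9, 42.4 and 45.7 FPKM in NEMOIEC-KO libraries (0.40 on the log2 scale, limma adjusted p = 0.00068). Its fold change against NEMOIEC-KO was -0.30 in Il12b-/- (adjusted p = 0.0075) and -0.27 in Il12a-/- mice (adjusted p = 0.027), and 0.01 with a 95% interval of -0.15 to 0.16 in Il23a-/- mice. The Il12a-/- call was lost without NEMOIEC-KO replicate 2 or 3 or Il12a-/- replicate 2, 3 or 5 (adjusted p between 0.069 and 0.084).

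**Figure D2:**
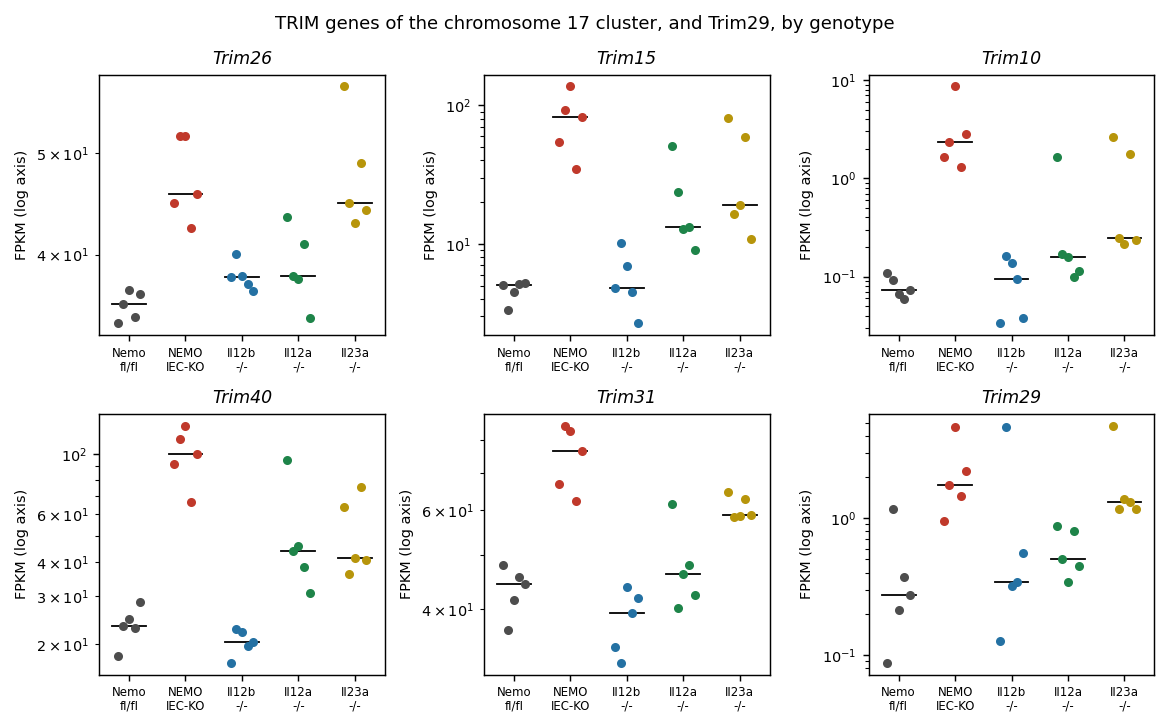
FPKM on a log axis of the 5 neighbouring chromosome 17 members and of Trim29, which lies on chromosome 9, in each library (points) of the 5 genotypes, with the group median as a line; the groups named Il12b, Il12a and Il23a also carry the NEMOIEC-KO deletion. The NEMOIEC-KO points lie above all Nemofl/fl points in each panel except that of Trim29, and Il12a-/- replicate 1 is the highest of its group in each panel.

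Trim29 (chr9:43310848-43336115, plus strand), known from keratinocytes and other stratified epithelia and lacking a RING finger, was the fourth of the steep risers. It measured 0.0879, 1.17, 0.215, 0.369 and 0.275 FPKM in control and 0.958, 1.76, 4.66, 1.44 and 2.22 FPKM in NEMOIEC-KO libraries. The log2 fold change was 1.51 (95% interval 0.58 to 2.45, limma adjusted p = 0.015), but the groups overlapped, and without NEMOIEC-KO replicate 3 it was 1.25 and not called (adjusted p = 0.054). Single high libraries also stood in the other groups: Il12b-/- replicate 2 at 4.66 FPKM against 0.126 to 0.561 in the rest, and Il23a-/- replicate 1 at 4.74 FPKM against 1.17 to 1.39. Trim27, a ubiquitin ligase that has been linked to IKK signalling, was higher in NEMOIEC-KO at 32.0 ± 3.57 against 22.2 ± 2.88 FPKM (0.52 on the log2 scale, limma adjusted p = 0.0067), and Trim65 at 4.56 ± 0.538 against 3.57 ± 0.384 FPKM (0.31, adjusted p = 0.033).

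The interferon-like members other than Trim26 are mostly neighbours as well. Trim6, Trim34a, Trim5, Trim12a, Trim12c, Trim30b, Trim30a and Trim30d lie between the start of Trim6 and the end of Trim30d on chromosome 7 (chr7:104218793-104507849, GRCm38). Several are near-identical copies (Trim12a and Trim12c, the Trim30 genes, Trim34a and Trim34b), so fragments can be split between them, and the strand setting of the counting is not given in the sources used here. Their separate values are uncertain to that extent. Of the 8, Trim30a, Trim12a, Trim5, Trim6, Trim30b and Trim34a were higher in NEMOIEC-KO than in Nemofl/fl, and Trim12c and Trim30d were not called.

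Sequences around the start sites are shown for the interferon-like members picked because their window holds an interferon-type element. The interferon-like list was chosen with earlier results of these data known. RefSeq windows (GRCm38.p6) of 300 bases, with 250 before and 50 from the start site on, were found for 35 of the 45 members. The element searched was GAAA, any 2 bases and GAAA again, on both strands with overlaps counted. It occurred in 8 of the 12 interferon-like members with a window (66.7%), in 1 of the 23 others (4.35%) and in 1079 of 27025 genes (3.99%). Related genes that share start-site sequence, such as Trim12a and Trim12c, are counted separately in these shares. The 1 other member was Trim2, which was called lower in NEMOIEC-KO (-0.75). The stretches printed are 90 bases long and run 5′ to 3′ on the gene's own strand. The first 7 end 28 bases after the start site, and that of Trim26 ends before it. Where RefSeq gives a gene several start sites, as for Trim30a and Trim15, the stretch and its positions are those of a single site. Capitals mark the element in either orientation.
Trim21 (chr7:102565454-102565543, minus): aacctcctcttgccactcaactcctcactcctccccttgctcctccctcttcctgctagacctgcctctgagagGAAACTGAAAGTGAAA
Trim34a (chr7:104244396-104244485, plus): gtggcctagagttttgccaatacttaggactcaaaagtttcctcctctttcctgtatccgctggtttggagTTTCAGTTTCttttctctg
Trim5 (chr7:104288078-104288167, minus): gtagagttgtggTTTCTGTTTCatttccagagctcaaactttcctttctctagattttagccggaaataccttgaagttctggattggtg
Trim12a (chr7:104315467-104315556, minus): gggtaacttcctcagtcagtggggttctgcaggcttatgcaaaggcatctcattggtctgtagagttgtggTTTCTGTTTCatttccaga
Trim12c (chr7:104353321-104353410, minus): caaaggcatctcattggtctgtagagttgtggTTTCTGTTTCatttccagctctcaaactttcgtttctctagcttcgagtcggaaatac
Trim30a (chr7:104465165-104465254, minus): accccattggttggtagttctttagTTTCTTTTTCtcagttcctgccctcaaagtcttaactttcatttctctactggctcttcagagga
Trim30d (chr7:104507821-104507910, minus): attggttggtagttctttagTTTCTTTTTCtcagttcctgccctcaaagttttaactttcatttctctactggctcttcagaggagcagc
Trim26 (chr17:36836971-36837060, plus): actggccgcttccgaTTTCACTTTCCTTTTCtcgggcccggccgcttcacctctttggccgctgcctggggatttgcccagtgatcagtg
The element stands before the start site in Trim5, Trim12c, Trim30a, Trim30d and Trim26 and after it in Trim21, Trim34a and Trim12a. In Trim21 and Trim26 a pair of matches overlaps. The printed stretches of Trim5, Trim12a and Trim12c share a run of 30 identical bases around it, and those of Trim30a and Trim30d a run of 50. These runs begin at the first printed base of Trim5 and of Trim30d, so they may be longer in the full windows. Of the members printed, Trim21, Trim34a, Trim5, Trim12a, Trim30a and Trim26 were called higher in NEMOIEC-KO. Trim12c (0.26) and Trim30d (0.21) hold the element and were not called. Whether the element bears on the calls was not tested. A match of letters is a description of the window and not evidence of binding.

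The letters TTCNNNGAA, the core of a STAT-type element, were searched in the same windows, because the chromosome 17 members moved together. They occurred in 0 of the 12 interferon-like members, in 4 of the 23 others (17.4%) and in 2582 of 27025 genes (9.55%). Of the cluster they were found for Trim31 and Trim15. The other members that hold them were Trim45, called lower in NEMOIEC-KO (-0.44), and Trim46, not called there (-0.17). The Trim31 match and 1 Trim15 match before an annotated start site are shown here in capitals, and the window of another Trim15 start site also holds a match after that site.
Trim15 (chr17:36867371-36867460, minus): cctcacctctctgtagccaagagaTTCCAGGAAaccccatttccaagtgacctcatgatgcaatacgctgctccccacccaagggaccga
Trim31 (chr17:36897985-36898074, plus): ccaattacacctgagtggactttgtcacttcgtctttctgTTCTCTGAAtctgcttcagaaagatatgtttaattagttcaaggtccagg
The windows of Trim10 and Trim40 hold neither set of letters.

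Trim12a (chr7:104299894-104315466), a mouse relative of the retroviral restriction factor TRIM5, was the most abundant interferon-like member to rise by more than 2-fold. It measured 18.6, 27.3, 25.5, 27.9 and 23.5 FPKM in control and 54.3, 65.0, 57.6, 49.9 and 58.4 FPKM in NEMOIEC-KO libraries (1.21 on the log2 scale, 95% interval 0.95 to 1.46, limma adjusted p = 7.1e-07). In the cytokine-labelled groups its means were ordered Il12b-/- (32.4 ± 4.71 FPKM), Il12a-/- (41.4 ± 6.29) and Il23a-/- (47.2 ± 5.09). The Il12b-/- and Il12a-/- libraries lay below all NEMOIEC-KO libraries, with log2 fold changes of -0.81 (limma adjusted p = 0.00012) and -0.46 (adjusted p = 0.022). The Il12a-/- call is lost without NEMOIEC-KO replicate 2 or 3, or Il12a-/- replicate 2 or 4 (adjusted p between 0.054 and 0.078). The Il12a-/- and Il23a-/- libraries were all above Nemofl/fl, at 0.74 (limma adjusted p = 0.002) and 0.93 (adjusted p = 2.7e-05).

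Trim30a (chr7:104409025-104465193), a mouse member known to dampen Toll-like receptor signalling through TAB2 and TAB3, measured 3.02, 3.04, 3.11, 2.40 and 3.38 FPKM in Nemofl/fl libraries. In NEMOIEC-KO it measured 5.45, 13.0, 9.31, 6.64 and 7.60 FPKM, all above the controls (log2 fold change 1.30, 95% interval 0.90 to 1.69, limma adjusted p = 5.7e-05). It averaged 4.48 ± 0.724 FPKM in Il12b-/- and 4.06 ± 1.02 in Il12a-/- mice, in both below all NEMOIEC-KO libraries, with log2 fold changes of -0.79 (adjusted p = 0.006) and -0.94 (adjusted p = 0.0057). In Il23a-/- mice it averaged 6.25 ± 1.36 FPKM, above all Nemofl/fl libraries (0.93, adjusted p = 0.002). Trim5 (chr7:104263386-104288094) was weaker, at 3.33 ± 0.943 FPKM in NEMOIEC-KO mice against 1.44 ± 0.215 in controls (SD, n = 5). Il12b-/- mice averaged 1.64 ± 0.2, Il12a-/- mice 1.85 ± 0.440 and Il23a-/- mice 2.29 ± 0.425 FPKM. Its rise in NEMOIEC-KO was 0.96 on the log2 scale (limma adjusted p = 9.1e-05), and it was lower than NEMOIEC-KO in Il12b-/- (-0.82, adjusted p = 0.00071) and Il12a-/- mice (-0.70, adjusted p = 0.0075).

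Trim6, which makes ubiquitin chains that activate the kinase IKKε, averaged 7.12 ± 1.17 FPKM in NEMOIEC-KO mice against 4.15 ± 0.472 in controls (log2 fold change 0.70, limma adjusted p = 0.0011). In Il12b-/- and Il12a-/- mice it averaged 4.20 ± 0.280 and 3.86 ± 0.824 FPKM, below all NEMOIEC-KO libraries in each (-0.68, adjusted p = 0.0021, and -0.81, adjusted p = 0.002). Trim21 (chr7:102557921-102565486) averaged 8.15 ± 0.990 FPKM in NEMOIEC-KO mice against 4.99 ± 0.689 in controls, without overlap (0.66, adjusted p = 0.0028), and 5.37 ± 0.296 FPKM in Il12b-/- mice (-0.55 against NEMOIEC-KO, adjusted p = 0.014). Its Il23a-/- libraries ran from 4.83 to 11.2 FPKM and overlapped both.

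Trim34a and Trim30b were called higher in NEMOIEC-KO but overlapped Nemofl/fl. Trim34a averaged 7.04 ± 1.16 against 4.77 ± 0.443 FPKM (0.51, limma adjusted p = 0.014). Trim30b measured 0.439, 1.11, 2.26, 0.353 and 0.498 FPKM in NEMOIEC-KO against 0.249 to 0.421 in Nemofl/fl (0.63, adjusted p = 0.047), and without NEMOIEC-KO replicate 3 its fold change was 0.35 (adjusted p = 0.18). Its call was also lost without any 1 of the control libraries or without NEMOIEC-KO replicate 2 (adjusted p between 0.057 and 0.11).

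Trim25, the ligase that activates RIG-I, needs a separate reading. It measured 21.1, 22.6, 22.7, 18.8 and 21.1 FPKM in control and 37.9, 43.2, 36.9, 29.6 and 38.0 FPKM in NEMOIEC-KO libraries, so every NEMOIEC-KO library was above every control. In Il12b-/- libraries it was listed at 0 in replicate 1 and at 26.8, 21.7, 25.2 and 18.7 FPKM in the other 4. It is 1 of 10 genes listed at 0 in a single library while all other 24 libraries hold at least 5 FPKM. In the model over all libraries the fold change in NEMOIEC-KO was 0.78 with a 95% interval of -0.60 to 2.16 (limma adjusted p = 0.38). With that value set to missing, an alternative chosen after seeing the data, the fold change was 0.78 with an interval of 0.53 to 1.03 (adjusted p = 0.00011). In the same fit Trim25 was lower in Il12b-/- than in NEMOIEC-KO mice (-0.68, adjusted p = 0.0011, mean 23.1 ± 3.61 FPKM, n = 4), higher in Il23a-/- than in Nemofl/fl mice (0.58, adjusted p = 0.0023), and at -0.33 in Il12a-/- against NEMOIEC-KO mice (adjusted p = 0.08). The remaining interferon-like members were not called in NEMOIEC-KO: Trim14 at 13.2 ± 3.38 against 9.24 ± 2.71 FPKM, Trim12c at 9.53 ± 0.908 against 7.90 ± 0.907, Trim30d at 12.8 ± 2.45 against 10.8 ± 0.933 and Trim56 at 5.84 ± 0.889 against 5.08 ± 0.397 FPKM.

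**Figure D3:**
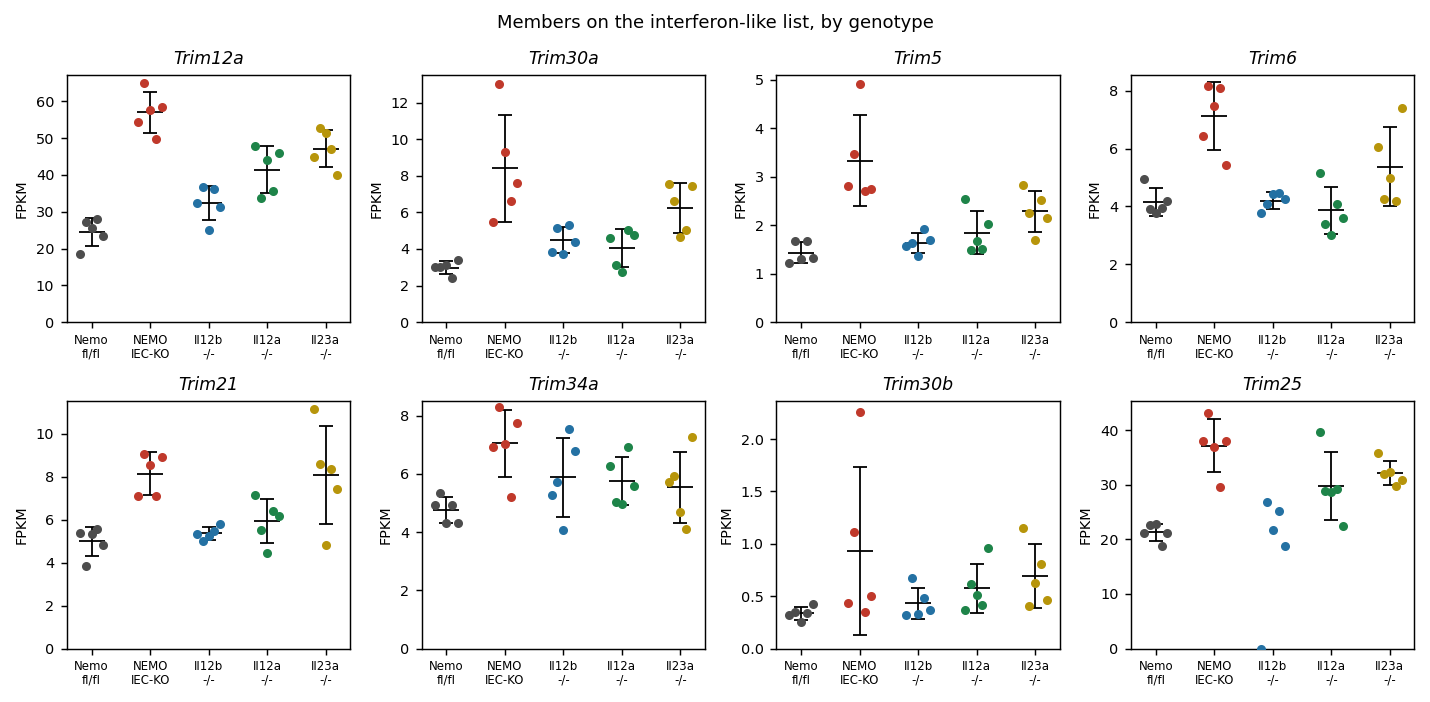
FPKM of 8 interferon-like members in each library (points) with the mean and SD of each genotype (bars, n = 5); no bar is drawn for Trim25 in Il12b-/- mice, where 1 library is listed at 0. The NEMOIEC-KO points lie above all Nemofl/fl points for Trim12a, Trim30a, Trim5, Trim6, Trim21 and Trim25, and the Il12b-/- points lie below all NEMOIEC-KO points for the same 6 genes.

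Genes of interferon signalling were higher in the same colon samples. Of 22 tested genes of a list of interferons, receptors, STAT and IRF factors and their regulators, 14 were higher and 0 lower in NEMOIEC-KO, with a median log2 fold change of 0.95. The largest rises were those of Nlrc5, the transactivator of MHC class I (29.1 ± 9.24 against 1.05 ± 0.199 FPKM), Ciita, its class II counterpart (12.9 ± 5.4 against 0.879 ± 0.349), and Socs1, a feedback inhibitor of JAK kinases (23.3 ± 13.9 against 2.12 ± 0.348). In Il12b-/- against NEMOIEC-KO mice 13 of the 22 were lower, in Il12a-/- mice 12, and in Il23a-/- mice 0, with 0 higher in each.

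Of 24 genes whose products TRIM proteins act on or with, 9 were higher and 1 was lower in NEMOIEC-KO, with a median log2 fold change of 0.09. The largest rises were those of Isg15, the ubiquitin-like modifier (3.21), Ube2l6, the conjugating enzyme for ISG15 (1.85), and Tmem173, which encodes STING (1.45). The gene called lower was Ulk1, the kinase that starts autophagy (-0.42, limma adjusted p = 0.0016). Of 4 TRIM genes with other symbols, Mefv (pyrin) was called higher, at 0.958 ± 0.633 against 0.179 ± 0.0675 FPKM (1.01, adjusted p = 0.0031). Pml (12.9 ± 1.65 against 11.5 ± 1.09 FPKM), Mid1 (12.0 ± 3.99 against 9.12 ± 0.501) and Mid2 (5.38 ± 1.18 against 6.31 ± 0.529) were not called.

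Markers of immune cells moved with these rises. T cell markers were higher in NEMOIEC-KO in 14 of 14 genes, with summed levels of 28.9 to 80.7 FPKM against 7.75 to 16.6 in Nemofl/fl. Neutrophil markers were higher in 9 of 10 genes (484 to 1165 against 253 to 426 FPKM), and macrophage markers were higher in 10 and lower in 2 of 15 (341 to 803 against 242 to 294 FPKM). Epithelial markers were higher in 6 and lower in 3 of 12 (11095 to 14375 against 12447 to 13748 FPKM). Plasma cell markers were higher in 8 of 8 genes (3826 to 17346 against 896 to 3520 FPKM), and of 7 B cell markers 0 were called (16.1 to 48.3 against 9.10 to 45.0 FPKM, limma). None of these markers was at 0 in all libraries. The part of these immune and epithelial markers in the TRIM differences was not tested.

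The 10 members that were lower in NEMOIEC-KO were all outside the interferon-like list: Trim62, Trim2, Trim47, Trim32, Trim23, Trim3, Trim44, Trim45, Trim37 and Trim41. Their fold changes were smaller than the rises, from -0.83 to -0.19 on the log2 scale, and 0 members were lower by 2-fold. For Trim62, Trim2, Trim32, Trim23, Trim44, Trim45 and Trim37 all NEMOIEC-KO libraries lay below all Nemofl/fl libraries, whereas Trim47, Trim3 and Trim41 overlapped. The share of all genes without overlap is not given, so these separations are descriptions of single genes.

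Trim62 (chr4:128883580-128911328, plus strand), a RING ligase with a SPRY domain, measured 5.90, 4.87, 5.12, 4.52 and 5.00 FPKM in control and 2.79, 2.52, 2.00, 3.03 and 2.94 FPKM in NEMOIEC-KO libraries (-0.83 on the log2 scale, 95% interval -1.17 to -0.49, limma adjusted p = 0.00085). Trim32 (chr4:65604986-65616238, plus), known for its role in striated muscle, measured 6.24, 7.21, 7.09, 5.80 and 6.61 FPKM in control and 3.83, 3.58, 4.12, 4.38 and 4.14 FPKM in NEMOIEC-KO (-0.65, adjusted p = 0.00092). Trim23 (chr13:104178797-104203372, plus), which carries an ARF-type GTPase domain, measured 3.28, 3.13, 3.11, 2.77 and 2.68 FPKM in control and 2.05, 1.59, 1.44, 2.17 and 1.97 FPKM in NEMOIEC-KO (-0.58, adjusted p = 0.0016). In these 3 genes every NEMOIEC-KO library was below every control library.

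Trim32 averaged 6.36 ± 0.730 FPKM in Il12b-/- mice, above all NEMOIEC-KO libraries (0.60, limma adjusted p = 0.0028), and 4.20 ± 0.733 in Il23a-/- mice, below all Nemofl/fl libraries (-0.60, adjusted p = 0.0028). Trim62 averaged 4.03 ± 0.590 FPKM in Il12b-/- mice (0.52 against NEMOIEC-KO, adjusted p = 0.028) and 2.57 ± 0.922 in Il23a-/- mice (-0.91 against Nemofl/fl, adjusted p = 0.00081). Its Il12b-/- call had adjusted p-values of 0.052 to 0.085 when NEMOIEC-KO replicate 2 or 3 or Il12b-/- replicate 1, 3, 4 or 5 was left out. Trim23 averaged 2.12 ± 0.407 FPKM in Il12b-/-, 1.84 ± 0.320 in Il12a-/- and 1.57 ± 0.281 in Il23a-/- mice, against 1.84 ± 0.312 in NEMOIEC-KO. It was called in none of the comparisons with NEMOIEC-KO, with a fold change of 0.16 in Il12b-/- mice, and was lower than Nemofl/fl in Il12a-/- (-0.59, adjusted p = 0.022) and Il23a-/- mice (-0.77, adjusted p = 0.00033).

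Trim2 and Trim3, related NHL-domain members studied mainly in neurons, averaged 10.1 ± 2.70 against 17.0 ± 2.63 FPKM and 11.5 ± 0.564 against 16.2 ± 3.44 FPKM in NEMOIEC-KO against Nemofl/fl mice (-0.75, limma adjusted p = 0.0042, and -0.46, adjusted p = 0.02). Trim47 averaged 8.81 ± 1.15 against 14.7 ± 4.78 FPKM (-0.65, adjusted p = 0.049). Trim47 was not called when any of Nemofl/fl replicates 2 to 5 or any NEMOIEC-KO library was left out (adjusted p between 0.051 and 0.14), and Trim3 not without Nemofl/fl replicate 2 or 3 (adjusted p = 0.063 and 0.056). Trim41, called lower at -0.19, was not called without NEMOIEC-KO replicate 5 (adjusted p = 0.055). Without Nemofl/fl replicate 3 or without NEMOIEC-KO replicate 3, 6 members were called lower in place of 10.

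RNA of smooth muscle markers differed between the same groups, and whether the amount of muscle differed was not tested. Of 14 smooth muscle markers 10 were lower in NEMOIEC-KO, with a median log2 fold change of -1.11 and summed levels of 1948 to 5865 FPKM against 3480 to 11974 in Nemofl/fl, and none was at 0 in all libraries. With the mean level of these markers, most of them lower in NEMOIEC-KO, as a covariate, 3 members were called lower in place of 10. In that fit Trim62 (-0.58), Trim32 (-0.45) and Trim23 (-0.48) were called (limma adjusted p = 0.017, 0.017 and 0.023), Trim2 was at -0.60 (adjusted p = 0.057), Trim3 at -0.21 (adjusted p = 0.3) and Trim47 at -0.10 (adjusted p = 0.73). Of the higher members, Trim15 (3.06), Trim40 (1.75), Trim12a (1.19) and Trim30a (1.1) were called in that fit as well, whereas Trim29 (0.97, adjusted p = 0.18), Trim27 (0.38, adjusted p = 0.091), Trim34a (0.46, adjusted p = 0.084) and Trim30b (0.35, adjusted p = 0.39) were not. Enteric neuron and glia markers were lower in 2 and higher in 0 of 11 genes (30.1 to 50.4 against 30.1 to 77.0 FPKM). Striated muscle markers were lower in 1 and higher in 0 of 5 (9.18 to 32.5 against 18.9 to 380 FPKM). Of all genes 20.3% were called lower. The part of the neuron, glia and striated muscle markers in the TRIM differences was not tested.

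Within the library code shared by all Nemofl/fl libraries and 3 NEMOIEC-KO libraries, the fold change was 3.86 for Trim15, 2.00 for Trim40, 1.16 for Trim12a and 1.25 for Trim30a, and -0.83 for Trim62, -0.59 for Trim32 and -0.58 for Trim23, all called (limma adjusted p between 0.00054 and 0.017). Trim47 (-0.62, adjusted p = 0.11), Trim3 (-0.42, adjusted p = 0.093), Trim41 (-0.20, adjusted p = 0.11) and Trim30b (0.67, adjusted p = 0.16) were not called there. With the code as a term over all libraries, 5 members were called lower.

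**Figure D4:**
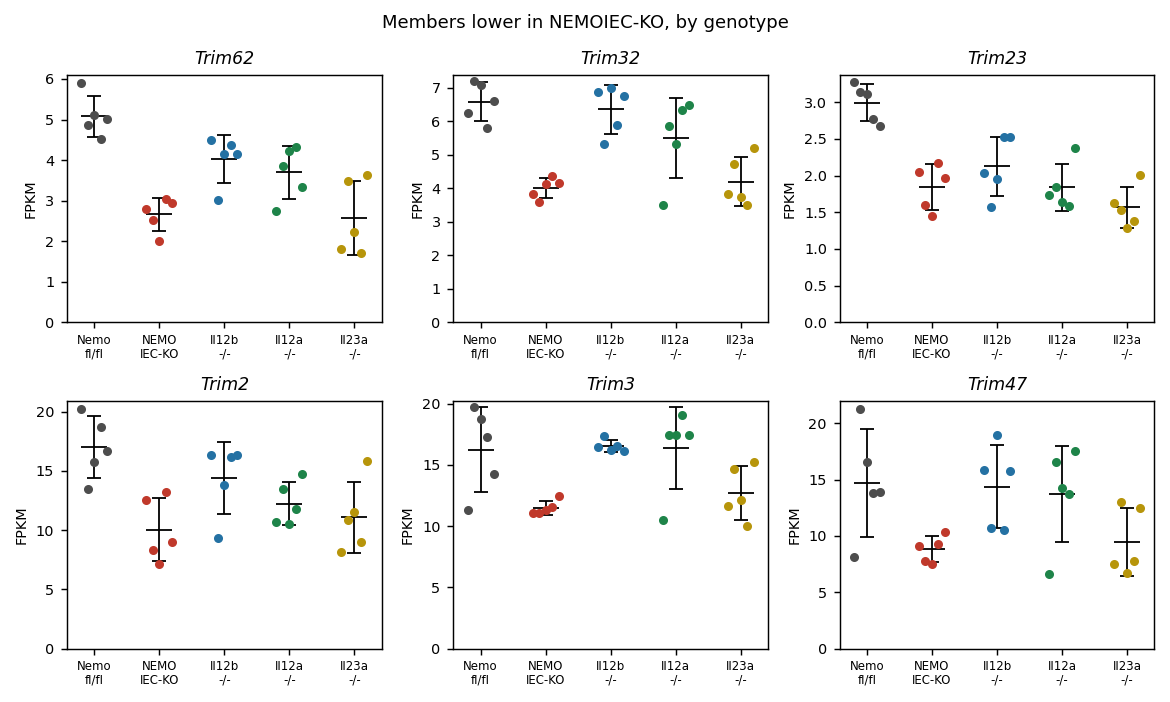
FPKM of 6 members called lower in NEMOIEC-KO in each library (points) with the mean and SD of each genotype (bars, n = 5). The NEMOIEC-KO points lie below all Nemofl/fl points for Trim62, Trim32, Trim23 and Trim2 and overlap them for Trim3 and Trim47.

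In Il12b-/- against NEMOIEC-KO mice, 11 of 45 members were lower and 7 higher. Of all genes 19.9% were called, 5.94% as lower and 14% as higher. With median-of-ratios scaling the share of higher genes among all called genes was 46.4%, and with quantile normalization 54.4%, in place of 70.2%. Under either, 3 members were called higher in place of 7. The lower members were Trim15, Trim10, Trim40, Trim31, Trim26, Trim12a, Trim30a, Trim5, Trim6 and Trim21, all described above as higher in NEMOIEC-KO, and Trim16. Among the 13 interferon-like members 6 were lower and 0 higher (median -0.55), and among the 32 others 5 were lower and 7 higher (median 0.20), beside a median of 0.11 for all genes. These comparisons share the NEMOIEC-KO libraries, so their fold changes are not independent. The 11 lower members include Trim10, which is a member only through its NEMOIEC-KO libraries.

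Trim16, known for its part in the autophagy of damaged lysosomes, averaged 37.7 ± 2.60 FPKM in Il12b-/-, 45.1 ± 3.48 in NEMOIEC-KO and 45.7 ± 2.26 in Nemofl/fl mice. The call of Trim16 against NEMOIEC-KO (-0.26, limma adjusted p = 0.048) was lost when any single library of either group was left out (adjusted p between 0.051 and 0.12). The higher members were Trim32, Trim46, Trim62, Trim3, Trim37, Trim8 and Trim41, with fold changes from 0.19 to 0.60. Trim46, known from the axon initial segment, averaged 15.7 ± 2.37 against 10.6 ± 2.29 FPKM (0.57, adjusted p = 0.018), and Trim37, known from centrosomes and peroxisomes, 4.75 ± 0.377 against 3.21 ± 0.174 FPKM (0.50, adjusted p = 0.0062). Without NEMOIEC-KO replicate 3 or without Il12b-/- replicate 1, 4 members were called higher in place of 7, and Trim46 and Trim41 were then not called (adjusted p between 0.056 and 0.063). Trim41 was also lost without NEMOIEC-KO replicate 5 (adjusted p = 0.071). Among only the libraries of 1 code, which leaves 2 NEMOIEC-KO libraries, 4 were higher and 7 lower. There Trim15 (-3.62), Trim40 (-2.29), Trim31 (-0.98), Trim12a (-0.88), Trim5 (-0.77), Trim6 (-0.72) and Trim21 (-0.54) were called lower.

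Markers moved here too. Neutrophil markers were lower in 6 of 10 genes, with summed levels of 220 to 334 FPKM in Il12b-/- and 484 to 1165 in NEMOIEC-KO mice, and T cell markers in 6 of 14 (10.5 to 50.3 against 28.9 to 80.7 FPKM). Epithelial markers were higher in 1 and lower in 5 of 12 (12192 to 15926 against 11095 to 14375 FPKM). Macrophage markers were higher in 1 and lower in 2 of 15 (348 to 598 against 341 to 803 FPKM). Erythroid markers were higher in 3 of 6 (45.4 to 78.5 against 21.2 to 82.6 FPKM). Smooth muscle markers had 0 of 14 called, with sums of 2250 to 10220 against 1948 to 5865 FPKM. With the smooth muscle level as a covariate, Trim62 (0.37, limma adjusted p = 0.094), Trim3 (0.35, adjusted p = 0.052) and Trim16 (-0.22, adjusted p = 0.13) were no longer called, whereas Trim15 (-3.15) and Trim40 (-2.04) were. The part of the markers other than those of smooth muscle in the TRIM differences was not tested. Against Nemofl/fl mice, 0 of 45 members were called in Il12b-/- mice (limma), where 0.369% of all genes were called, 0.249% as higher and 0.119% as lower. Of all called genes 67.6% were higher, against 54% with median-of-ratios scaling and 49.5% with quantile normalization. At an unadjusted p below 0.05, 8 members were higher and 2 lower, so the absence of calls does not show that the members were alike. The library codes do not overlap between Il12b-/- and Nemofl/fl mice, so the code and the genotype cannot be told apart within this pair. The fold change of Trim26 was 0.09 (95% interval -0.07 to 0.25), and the interval of Trim15 ran from -0.84 to 1.22.

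In Il12a-/- against NEMOIEC-KO mice, 9 members were lower and 2 higher, where 9.61% of all genes were called, 4% as lower and 5.61% as higher. Of all called genes 37.4% were higher with median-of-ratios scaling and 46.7% with quantile normalization, in place of 58.3%. With median-of-ratios scaling 0 members were called higher in place of 2. The lower members were Trim10, Trim15, Trim40, Trim31, Trim26, Trim30a, Trim6, Trim5 and Trim12a, and the higher ones Trim41 (0.24, limma adjusted p = 0.017) and Trim3 (0.47, adjusted p = 0.045). The interferon-like members had 5 lower and 0 higher (median -0.36), the others 4 lower and 2 higher (median 0.12), and the median of all genes was 0.07. The 9 lower members here also include Trim10, a member only through its NEMOIEC-KO libraries. Trim10, Trim15, Trim40 and Trim26 overlapped NEMOIEC-KO through Il12a-/- replicate 1 alone. Without that replicate 12 members were lower and 6 higher, among them Trim21 (-0.50, adjusted p = 0.025), Trim14 (-0.72, adjusted p = 0.028) and Trim32 (0.53, adjusted p = 0.0019).

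The count of higher members was 1 without NEMOIEC-KO replicate 1, 2, 3 or 5 or Il12a-/- replicate 2, 3 or 5, and 0 without Il12a-/- replicate 4. Trim3 was lost in each of those 8 cases and without NEMOIEC-KO replicate 4 (adjusted p between 0.055 and 0.12), and Trim41 without Il12a-/- replicate 4 (adjusted p = 0.054).

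Markers were lower in Il12a-/- than in NEMOIEC-KO mice for 4 of 12 epithelial genes (12881 to 14671 against 11095 to 14375 FPKM), 3 of 15 macrophage genes (226 to 518 against 341 to 803), 2 of 10 neutrophil genes (362 to 540 against 484 to 1165), 2 of 14 T cell genes (16.9 to 39.5 against 28.9 to 80.7) and 1 of 8 plasma cell genes (1453 to 8845 against 3826 to 17346). Their part in the TRIM differences was not tested. Of 14 smooth muscle markers 0 were called (limma), with sums of 2632 to 12560 against 1948 to 5865 FPKM.

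Among the Il12a-/- libraries and the 2 NEMOIEC-KO libraries of their code, 0 members were called in either direction. The fold changes there were -1.94 for Trim15, -1.11 for Trim40, -1.01 for Trim30a and -0.85 for Trim6 (limma adjusted p between 0.25 and 0.29). When only these 2 genotypes were fitted, 2 members were called lower and 0 higher, and with the smooth muscle covariate likewise 2 and 0. In Il12a-/- against Nemofl/fl mice, Trim12a and Trim40 were higher and Trim23 was lower, beside 1.34% of all genes called, 0.773% as higher and 0.571% as lower. Trim15 there had a log2 fold change of 1.87, with all Il12a-/- libraries above all controls, and did not pass (adjusted p = 0.061). The library codes do not overlap between these groups either, so the code and the genotype cannot be told apart within this pair. With the library code as a term none of the 3 calls remained. The count of higher members was 1 without any single Nemofl/fl library and without Il12a-/- replicate 1, 2 or 3, and that of lower members was 0 without Nemofl/fl replicate 1 or 3 or Il12a-/- replicate 2 or 4. Without Il12a-/- replicate 1 the lower member was Trim16 (-0.37, adjusted p = 0.014) in place of Trim23 (-0.57, adjusted p = 0.053).

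In Il23a-/- against NEMOIEC-KO mice, 0 of 45 members were called in either direction (limma), beside 0.083% of all genes, 0.0467% as higher and 0.0363% as lower. Of those genes 56.3% were higher, against 41.2% with median-of-ratios scaling and 37.5% with quantile normalization. At an unadjusted p below 0.05, 1 member was higher and 9 were lower. The interferon-like members had a median log2 fold change of -0.23 and the others of 0.05, beside 0.03 for all genes. Trim10 (-1.38), Trim15 (-1.36) and Trim40 (-0.97) had the lowest values, with intervals that do not reach 0 before adjustment (-2.26 to -0.50, -2.39 to -0.33 and -1.46 to -0.48). When Il12a-/- replicate 1, a library of neither group, was left out of the fit, Trim40 alone was called (-0.97, limma adjusted p = 0.019). The absence of calls therefore does not show that these genes were alike in both groups.

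In Il23a-/- against Nemofl/fl mice, 11 members were higher and 4 lower, beside 29.5% of all genes called, 12.6% as higher and 17% as lower. The interferon-like members had 5 higher and 0 lower (median 0.40) and the others 6 higher and 4 lower (median -0.05), with -0.05 for all genes. The higher members were Trim15 (2.48), Trim29 (1.35), Trim40 (1.07), Trim30a (0.93), Trim12a (0.93), Trim21 (0.61), Trim5 (0.52), Trim31 (0.49), Trim27 (0.46), Trim26 (0.40) and Trim65 (0.30). The lower ones were Trim62, Trim23, Trim2 and Trim32. Sex differed between these groups, with 4 of 5 females against 0 of 5, and with sex as a term 7 members were called higher. The library codes do not overlap between these groups at all, so the code and the genotype cannot be told apart within this pair. With the code as a term, which rests on the NEMOIEC-KO libraries that carry both codes, 2 members were higher and 2 lower. Smooth muscle markers were lower in 12 of 14 genes here (2148 to 6713 against 3480 to 11974 FPKM), and with them as a covariate the counts were also 2 and 2. Plasma cell markers were higher in 8 of 8 genes (4494 to 11241 against 896 to 3520 FPKM), T cell markers in 12 of 14 (21.3 to 39.7 against 7.75 to 16.6) and neutrophil markers in 4 of 10 (368 to 909 against 253 to 426). Macrophage markers were higher in 8 and lower in 2 of 15 (315 to 734 against 242 to 294 FPKM), epithelial markers higher in 6 and lower in 2 of 12 (10836 to 14595 against 12447 to 13748) and erythroid markers lower in 5 of 6 (15.5 to 26.5 against 26.3 to 67.8). The part of these other markers in the TRIM differences was not tested. Without Il23a-/- replicate 5, 9 members were called lower in place of 4.

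The cytokine labels were also compared directly. In Il23a-/- against Il12b-/- mice, 5 members were higher and 2 lower, beside 5.11% of all genes called, 1.93% as higher and 3.18% as lower. Of all called genes 56.9% were higher with median-of-ratios scaling and 54.9% with quantile normalization, in place of 37.8%. Trim15 (2.29, limma adjusted p = 0.011), Trim40 (1.26, adjusted p = 0.0029), Trim31 (0.67, adjusted p = 0.00077), Trim12a (0.54, adjusted p = 0.014) and Trim26 (0.31, adjusted p = 0.022) were higher in Il23a-/- mice. All Il23a-/- libraries lay above all Il12b-/- libraries for each of these 5. Trim32 (-0.55, adjusted p = 0.018) and Trim62 (-0.60, adjusted p = 0.035) were lower, with Trim62 overlapping. The lower count was 0 without Il12b-/- replicate 1 or 5 or Il23a-/- replicate 4, and 1 without Il12b-/- replicate 3 or 4 or Il23a-/- replicate 1 or 3.

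In Il12a-/- against Il12b-/- mice the single called member was Trim40 (1.18, limma adjusted p = 0.016), where all Il12a-/- libraries exceeded all Il12b-/- libraries, beside 0.41% of all genes called, 0.176% as higher and 0.234% as lower. Without Il12a-/- replicate 1 its fold change was 0.93 (adjusted p = 0.036), and without Il12b-/- replicate 1 the count was 0. In Il23a-/- against Il12a-/- mice 0 members were called (limma), beside 1.16% of all genes, 0.763% as higher and 0.4% as lower, with 6 higher and 4 lower at an unadjusted p below 0.05. Without Il12a-/- replicate 1 the counts were 5 higher and 4 lower: Trim26 (0.32), Trim31 (0.45), Trim6 (0.52), Trim30a (0.62) and Trim16 (0.22) were higher in Il23a-/- mice and Trim32 (-0.48), Trim3 (-0.49), Trim62 (-0.58) and Trim47 (-0.73) lower. Without Il23a-/- replicate 2 or 5, 1 member was called in each direction, and without replicate 3, 1 was called higher.

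**Figure D5:**
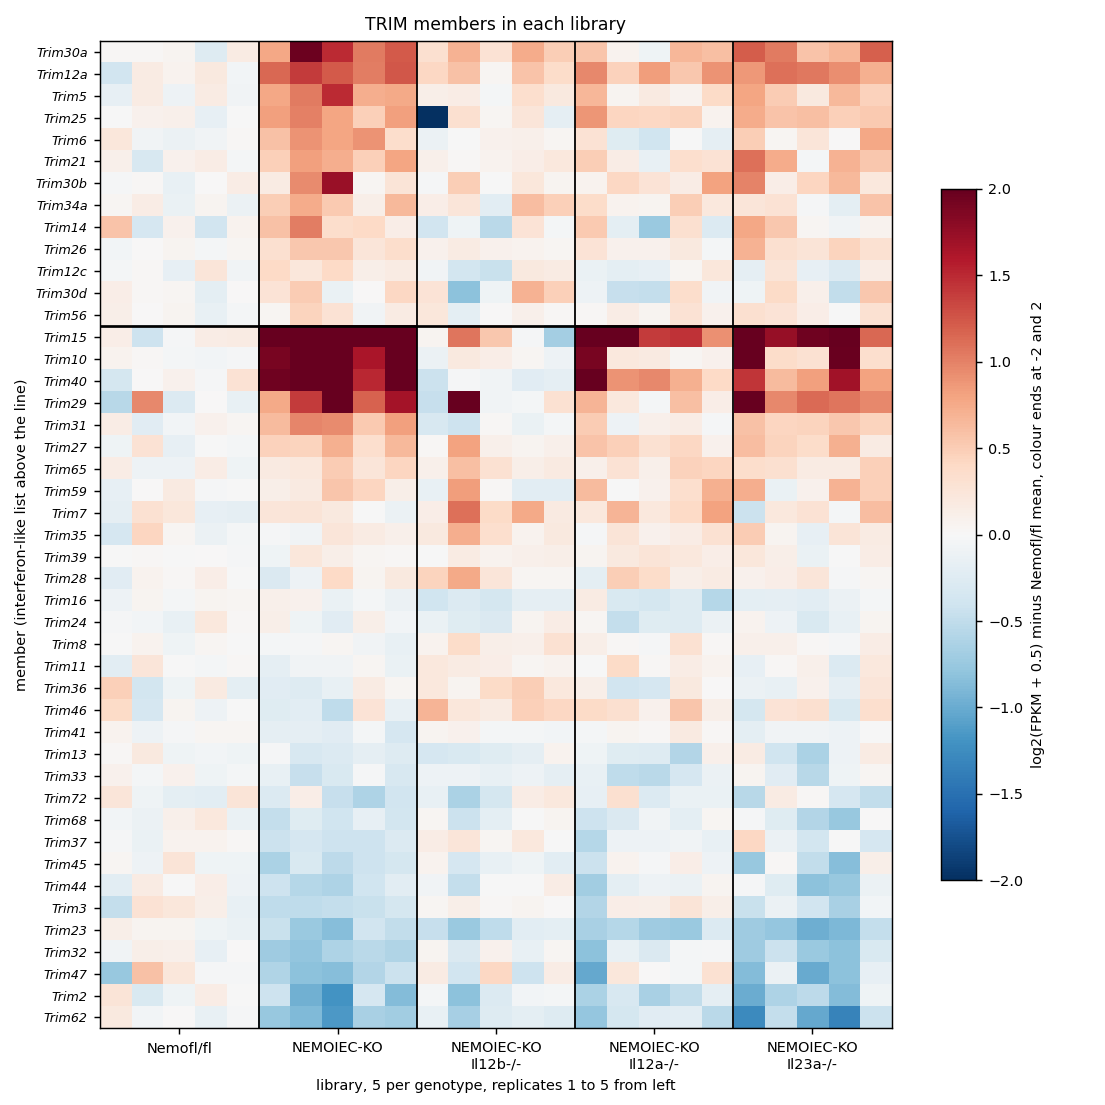
Log2(FPKM + 0.5) of the 45 members (rows, interferon-like list above the line) in the 25 libraries (columns, 5 per genotype) minus the Nemofl/fl mean of each gene, with colours ending at -2 and 2. Trim15, Trim10 and Trim40 are dark red in the NEMOIEC-KO columns, in Il12a-/- replicate 1 and in Il23a-/- replicates 1 and 4. Other Trim15 cells of the Il12a-/- and Il23a-/- groups are red too, the darkest being Il12a-/- replicate 2. The dark blue cell in Il12b-/- replicate 1 is Trim25, listed at 0.

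Across the family, 20 of 45 members were called in neither direction in NEMOIEC-KO against Nemofl/fl mice. They include the abundant Trim28 and Trim16. Trim68 (-0.33, limma adjusted p = 0.063) and Trim33, a relative of Trim28 (-0.25, adjusted p = 0.082), both named after their values were seen, were closest to the threshold. All NEMOIEC-KO libraries lay below all control libraries for Trim68, at 5.90 ± 0.563 against 7.56 ± 0.870 FPKM.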

How the data were processed

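Per the labels' protocols, stranded poly(A)-selected libraries of 25 mouse colon samples were sequenced from both ends. The values are FPKM per gene and library as deposited by the authors. The submitters' processing notes name TopHat2 2.0.10, Cufflinks 2.1.1, DESeq2 1.10.1 and GRCm38 without their roles. The annotation release and strand setting are not given in the sources used here. Of 49452 identifiers, 49195 matched a symbol and a position (GENCODE). Genes with at least 0.2 FPKM in 5 or more libraries (19266, all 45 members among them) were fitted as log2(FPKM + 0.5) in limma 3.58.1 (R 4.3.3) with 1 mean per genotype over all 25 libraries, a variance trend and 20 residual degrees of freedom. Tests were two-sided, with Benjamini-Hochberg adjustment over all genes of a comparison and a threshold of 0.05. Replicates are separate mice. FPKM carry no counts, so no counting interval is given. The fit was tested on simulated data. Members, lists and comparisons were chosen with earlier results of these data known. Named were all interferon-like members, the most abundant others, those nearest the minimum and fixed numbers of the largest called changes of each comparison; other members named were chosen after their values were seen. Alternatives were pseudocounts of 0.1 and 1, filters, scalings, no trend, 2 groups only, the replicate number as a block, library code, smooth muscle level, sex, single libraries left out and, added after seeing the data, single zeros set to missing.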

Additional observations from a re-analysis of the deposited data

Results flagged for a closer look

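Among 145 pairs of a named gene and a genotype, 9 single libraries stood far from the other 4 of their group, and the critical value used is one that about 1 group in 20 passes by chance. These pairs are not independent, since 6 of the 9 came from Il12b-/- replicate 2 and Il12a-/- replicate 1. The cause was not tested. In Nemofl/fl, Trim29 stood at 1.17 FPKM in replicate 2, with the nearest other library at 0.369. In NEMOIEC-KO, Trim10 stood at 8.64 FPKM in replicate 3, the nearest being 2.80. In Il12b-/- replicate 2, Trim27 stood at 39.1 FPKM (nearest 23.8), Trim29 at 4.66 (nearest 0.561) and Trim62, as the lowest, at 3.02 (nearest 4.14). In Il12a-/- replicate 1, Trim10 stood at 1.66 FPKM (nearest 0.171), Trim40 at 95 (nearest 45.7) and Trim3, as the lowest, at 10.5 (nearest 17.4). In Il23a-/- replicate 1, Trim29 stood at 4.74 FPKM (nearest 1.39).

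The effect of the cytokine labels differed directly for 7 members. Against Il12b-/- mice, Trim40 had a log2 fold change of 1.18 in Il12a-/- mice and of 1.26 in Il23a-/- mice. In Il23a-/- against Il12b-/- mice the values were 2.29 for Trim15, 0.67 for Trim31, 0.54 for Trim12a, 0.31 for Trim26, -0.55 for Trim32 and -0.60 for Trim62.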

How the results depend on the processing

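The 48 single-gene results recomputed were those of NEMOIEC-KO against Nemofl/fl and of Il12b-/- and Il12a-/- against NEMOIEC-KO, and none of them reversed its direction. Single genes of the other comparisons were not recomputed under every alternative. Of the 1145 values for the 48 results, 990 stayed on the same side of the threshold and 155 lost the call. Counts of members that moved by more than 1.5 times were as follows, each with the count as reported second; the cause was not tested. For members lower in NEMOIEC-KO than in Nemofl/fl, they were 6 with median-of-ratios scaling, 5 with library code and 3 with the smooth muscle covariate, against 10. For Il12b-/- against NEMOIEC-KO, higher members were 3 with median-of-ratios scaling, 3 with quantile normalization, 1 with library code and 4 within a code, against 7, and lower ones 7 within a code, against 11. For Il12a-/- against NEMOIEC-KO, higher members were 1 with no filter and 0 with median-of-ratios scaling, library code, smooth muscle, 2 groups only or within a code, against 2, and lower ones 2 with library code, smooth muscle or 2 groups only and 0 within a code, against 9. For Il23a-/- against NEMOIEC-KO, 1 member was lower with smooth muscle, against 0. For Il12a-/- against Nemofl/fl, higher members were 1 with no filter or sex and 0 with library code, against 2, and lower ones 0 with library code or sex, against 1. For Il23a-/- against Nemofl/fl, higher members were 2 with library code or smooth muscle and 7 with sex, against 11, and lower ones 2 with library code or smooth muscle, against 4. For Il12a-/- against Il12b-/-, higher members were 2 with smooth muscle and 0 with 2 groups only or within a code, against 1. For Il23a-/- against Il12b-/-, higher members were 2 with smooth muscle and 3 with 2 groups only, against 5, and lower ones 1 with no filter, either scaling or sex and 0 with smooth muscle or 2 groups only, against 2.

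Leaving out 1 library at a time gave 12 to 15 higher and 6 to 9 lower members in NEMOIEC-KO against Nemofl/fl, 4 to 10 higher and 10 to 13 lower in Il12b-/- against NEMOIEC-KO, and 0 to 6 higher and 6 to 12 lower in Il12a-/- against NEMOIEC-KO. It gave 1 to 3 higher and 0 to 1 lower in Il12a-/- and 9 to 12 higher and 3 to 9 lower in Il23a-/- against Nemofl/fl. Among the cytokine labels it gave 0 to 1 higher in Il12a-/- against Il12b-/-, 4 to 7 higher and 0 to 3 lower in Il23a-/- against Il12b-/-, and 0 to 5 higher and 0 to 4 lower in Il23a-/- against Il12a-/-.

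The replicate numbers are not known to mark shared litters or days: libraries of the same number in different groups had a median correlation of 0.0071 over 50 pairs, and those of different numbers 0.0086 over 200. With the replicate block, 1 member in place of 2 was lower in Il23a-/- against Il12b-/- mice. Members numbered 47 at a minimum of 0.2 FPKM and 43 at 1 FPKM. The depth is unknown, which limits weak members such as Trim10 and Trim30b most.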
